A study of Mus musculus with 2 samples.

Results

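The wide footprints of the mouse adrenal gland were examined where they recurred in both DNase-seq libraries of the study. A footprint was counted as wide from 30 bp, and as found in both pools when the footprint of replicate 1 and a wide footprint of replicate 2 overlapped by at least 50% of both widths. This left 4622 wide footprints out of 272595 footprints of any width in replicate 1 and 319381 in replicate 2. The comparison set was the 51219 narrow footprints, of 15 bp or less, found in both pools by the same overlap. Both sets were chosen by width and by recurrence, which are given below as a description only.

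The study profiled adrenal glands of male B6CASTF1/J mice aged 8 to 10 months, a first-generation cross of C57BL/6J and CAST/EiJ obtained from The Jackson Laboratory. It holds 1 group of 2 biological replicates, each a pool of 6 gland biosamples sequenced as 1 library, with no treatment, genotype contrast or control group. Both pools carry the same donor label, so the spread between them may be partly technical. With 2 pools and 1 group no test between groups can be made, and differences are set against the values of the other pool. The glands were whole, so cortex, medulla and every other cell of the gland contributed. Promoter peaks of the tissue's defining genes were present in both pools for 8 of the 9 genes looked at. Among them, Star had a promoter peak signal of 5.44 and 6.52 and Th one of 1.65 and 2.23, while Hsd3b1 had no promoter peak.

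DNase I cuts open chromatin and is kept off the stretches that proteins cover, so a footprint is a short run of protected bases inside an open region. A lone factor usually covers a small stretch, whereas factors with many zinc fingers, adjacent factors or the machinery assembled at a start site cover longer ones. CTCF reads its site with a long array of zinc fingers, and together with cohesin it is best known for anchoring chromatin loops. At tRNA genes the promoter lies inside the gene: TFIIIC binds the internal A and B boxes and places TFIIIB upstream of the start, which recruits RNA polymerase III.

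Sequences more frequent in the 61 bp centred on wide than on narrow footprints included CTCF sites away from promoters and the B box of tRNA genes. Near promoters they included NRF1, cyclic AMP response elements (CRE) and BANP sites. The SP and KLF site was also more frequent, in 13.0% and 12.9% of members, and is not printed. The stretches printed here are those of replicate 1 with 10 bases added on each side, 5′ to 3′ on the strand named, from the mm10 reference. Capitals mark the match. They are the 5 CTCF members away from promoters, the 3 NRF1 members and the 2 members each of the other kinds with the highest mean host signal, among those with a central stretch that occurs once in the reference and with no annotated exon in the stretch. A stretch is named by its nearest gene, which is not an assignment. In the Dcaf6 stretch the capitals run past the right edge of the footprint into the added bases, and in the others they lie inside it.
Ptma region, chr1:86525448-86525501, minus strand: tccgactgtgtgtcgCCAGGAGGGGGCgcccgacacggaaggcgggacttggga
Zc3h4 region, chr7:16400165-16400215, minus strand: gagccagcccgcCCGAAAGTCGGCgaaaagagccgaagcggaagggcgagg
Adamts15 region, chr9:30896979-30897030, minus strand: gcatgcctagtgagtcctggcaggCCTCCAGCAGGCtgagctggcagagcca
Sema3b region, chr9:107612815-107612865, minus strand: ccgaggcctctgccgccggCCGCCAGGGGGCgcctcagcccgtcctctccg
Gm22846 region, chr8:94704180-94704250, plus strand: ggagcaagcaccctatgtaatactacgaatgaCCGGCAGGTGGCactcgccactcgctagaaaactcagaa
Eif5a promoter, NRF1, chr11:69921488-69921548, minus strand: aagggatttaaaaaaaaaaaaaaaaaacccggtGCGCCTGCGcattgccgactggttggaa
Cyth1 promoter, NRF1, chr11:118248632-118248687, plus strand: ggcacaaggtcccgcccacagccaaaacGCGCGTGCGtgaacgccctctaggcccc
Usp37 promoter, NRF1, chr1:74505861-74505914, plus strand: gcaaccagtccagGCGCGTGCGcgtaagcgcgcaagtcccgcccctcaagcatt
Gtf3c1 promoter, CRE, chr7:125707783-125707844, plus strand: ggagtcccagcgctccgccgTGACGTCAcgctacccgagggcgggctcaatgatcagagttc
Per1 region, CRE, chr11:69097165-69097224, plus strand: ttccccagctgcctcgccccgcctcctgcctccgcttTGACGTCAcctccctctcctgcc
Dcaf6 promoter, BANP, chr1:165460545-165460594, plus strand: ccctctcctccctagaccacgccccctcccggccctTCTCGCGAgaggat
Mapk14 promoter, BANP, chr17:28691244-28691293, plus strand: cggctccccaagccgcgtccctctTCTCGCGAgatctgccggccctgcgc
tRNA-Ser gene n-TStga3, chr10:63429470-63429521, minus strand: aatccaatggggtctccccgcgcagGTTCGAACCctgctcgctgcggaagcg
tRNA-Arg gene n-TRccg1, chr11:107012893-107012944, plus strand: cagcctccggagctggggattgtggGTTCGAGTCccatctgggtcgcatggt

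Wide footprints were rare but recurred more often than narrow ones. They made up 2.63% of all footprints in replicate 1 (7179) and 3.35% in replicate 2 (10706). Of these, 64.4% (exact 95% binomial interval 63.3 to 65.5) and 43.2% (42.2 to 44.1) had a wide partner in the other pool. The intervals cover counting error only. Narrow footprints had a narrow partner in 22.7% and 20.1% of cases, and footprints of 16 to 29 bp in 54.9% and 41%. The overlap demanded is fewer bases for a narrow footprint, but a shift by fewer bases also breaks its match. The shares are therefore a description of the call lists.

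A wide footprint without a wide partner was seldom without any partner. In replicate 2, 2219 of the wide footprints of replicate 1 (30.9%) overlapped a footprint of 16 to 29 bp and 293 (4.08%) one of 15 bp or less. A further 8 overlapped a wide footprint by too little, and 37 (0.515%) overlapped none. In the other direction 40.7% of the wide footprints of replicate 2 met a footprint of 16 to 29 bp in replicate 1, 13.3% met a narrow one, and 2.77% met none.

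The members had a median width of 36 bp in replicate 1 and 37 bp in replicate 2, up to 98 and 79 bp. Their edges were placed within 2 bp of each other in 69.0% of members on the left and 68.2% on the right, with a median difference of 1 bp, and 361 members (7.81%) were identical. The member was wider in replicate 2 in 49.8% of cases and narrower in 36%. All member positions are therefore nearly equal in the 2 pools by construction, and agreement of location or sequence between pools is no separate evidence. Footprints on either side of the width limit were alike in kind. In replicate 1 those of 28 to 29 bp lay within 1 kb of a transcription start site (TSS) in 46.0% of cases and those of 30 to 31 bp in 51.4%. In replicate 2 these shares were 40.4% and 41.7%.

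More of the wide than of the narrow footprints lay near a start site, and those near one were mostly upstream of it. Of the 4622 members, 2762 (59.8%) were within 1 kb of an annotated TSS, 818 lay in introns, 942 (20.4%) between genes and 100 in exons. Among narrow footprints found in both pools the promoter share was 38.9%. Members within 1 kb of a TSS sat at a median of -49 bp in replicate 1 and -50 bp in replicate 2, counted from the TSS with upstream negative, against -23 bp for narrow footprints. The 150 bp upstream of the TSS held 59.7% and 59.5% of these members, against 35.7% of the narrow footprints in both pools. Upstream midpoints in all made up 78.3% and 78.4% of members and 57.9% and 57.8% of narrow footprints. Narrow footprints were spread more evenly across the start, with 25.9% in the 150 bp downstream against 13.9% of members.

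**Figure D1:**
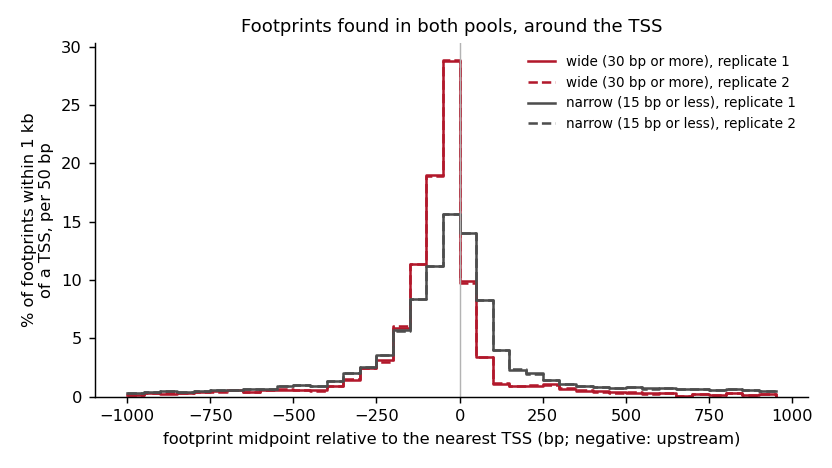
Position of footprint midpoints relative to the nearest TSS, in bins of 50 bp, as a percentage of the footprints within 1 kb of a TSS. Lines stand for wide and narrow footprints found in both pools, solid for replicate 1 and dashed for replicate 2. The wide footprints peak in the bins just upstream of the start, with 59.7% and 59.5% of them in the 150 bp upstream, whereas narrow ones extend on both sides.

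The peaks that hosted the wide footprints were among the strongest of the gland. The host peak is the authors' DNase peak that overlaps the footprint most, and its signal is the authors' value on a scale that the sources used here do not state. Members had a median host signal of 4.12 in the pool of replicate 1 and of 5.51 in that of replicate 2, which averages 4.81 ± 0.983 (SD, n = 2 pools). For narrow footprints it was 1.41 and 1.81 (1.61 ± 0.283, SD, n = 2 pools). The lower value of the wide set was above the higher value of the narrow set, a gap larger than the spread between pools. Of the members, 16.2% and 19.6% lay in the 1% of peaks with the most signal, against 2.65% and 3.34% of narrow footprints. Members in promoters had median host signals of 5.87 and 7.58 and narrow footprints there 2.86 and 3.83. Away from promoters the values were 2.05 and 2.89 for members and 1.06 and 1.33 for narrow footprints.

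The excess near start sites moved with host signal. When footprints were divided into quartiles of host signal set on both sets together, the promoter share of members in the strongest quartile was 80.2% in replicate 1 and 79.6% in replicate 2. Narrow footprints in that quartile had 76.8% and 79.4%. In the third quartile members were less often in promoters, with 33.1% and 30.2% against 41% and 41.5%, and in the second with 10.9% and 8.11% against 21.8% and 20.3%. In the weakest quartile the shares were 7.59% and 11.6% against 12.2% and 11.9%. Of the members with a host peak, 2756 and 2834 were in the strongest quartile and 79 and 43 in the weakest. At like host signal the promoter share of wide footprints was thus above that of narrow ones in the strongest quartile alone, by little in both pools, and below it in the others. The part of host signal in the calling of wide footprints was not tested.

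**Figure D2:**
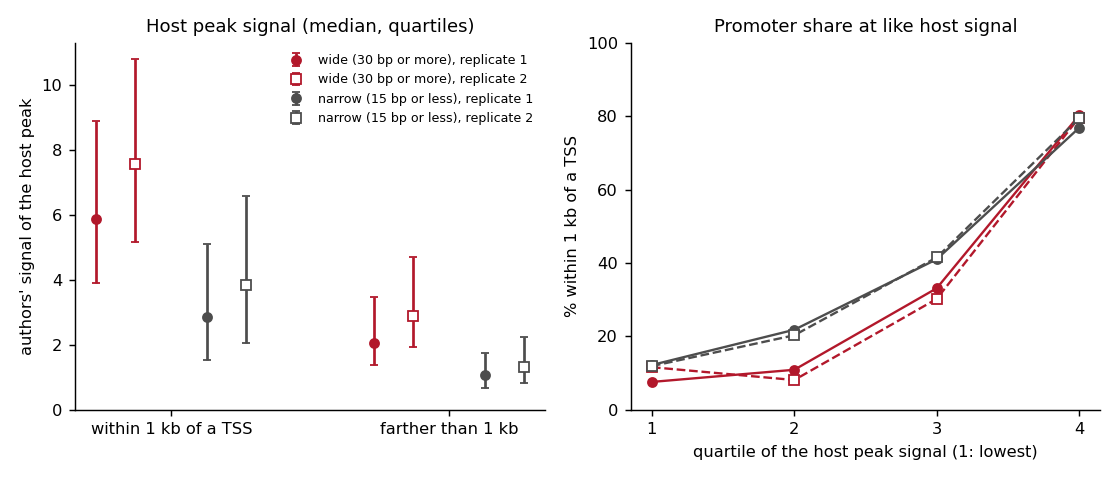
Left, the authors' signal of the host peak for wide and narrow footprints within 1 kb of a TSS and farther away, as the median with quartiles, filled circles for replicate 1 and open squares for replicate 2. Right, the percentage within 1 kb of a TSS by quartile of host signal: the medians of wide footprints are higher at both locations, while in the strongest quartile wide and narrow footprints have promoter shares of 80.2% and 76.8% in replicate 1.

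Within the host peak the members lay closer to the middle. The median distance of the footprint midpoint from the peak midpoint was 20.5 bp and 19.5 bp for members and 45.5 bp for narrow footprints in both pools. Away from promoters it was 10.5 and 9.5 bp against 38.5 bp. The number of footprints in the host peak did not set members apart, with a median of 4 for both sets in both pools. The 4461 members with a host in replicate 1 fell in 4023 peaks, of which 405 (10.1%) held more than 1 member and none more than 4. Neighbouring members in the same peak had midpoints a median of 80.5 and 80 bp apart. The highest value of the authors' false discovery rate (FDR) of cleavage listed over the footprint was 0.001 or lower in 98.9% and 99.8% of members, against 83.4% and 90.8% of narrow footprints. Another 161 and 168 members (3.48% and 3.63%) overlapped no peak of the main list.

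Wide footprints lay in sequence rich in G and C. The 61 bp centred on a member had a median GC content of 62.3% in both pools and held 4.33 and 4.32 CpG on average, against 54.1% and 2.57 for narrow footprints. In promoters the GC medians were 67.2% for members and 63.9% for narrow footprints, and away from promoters 55.7% and 50.8%. Bases soft-masked as repeats made up at least 50% of the footprint in 6.9% and 6.82% of members and in 8.38% and 8.35% of narrow footprints. The central 31 bases occurred more than once in the reference in 164 members of replicate 1 (3.55%) and 170 of replicate 2 (3.68%), against 1.72% and 1.69% of narrow footprints. Reads from such stretches cannot be placed with certainty. The repeated ones include the tRNA genes and a group on chromosome 9 described further on.

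The motifs in the windows centred on wide footprints differed from those in the windows of narrow ones. Of 28 consensus sequences searched on both strands of the same 61-bp window, 14 were at a higher share in members in both pools. The other 14 were at a lower share. At least 2-fold higher were 8, and at least 2-fold lower were 6. Some of these rest on few members: REST on 7 and the NFI palindrome on 3 in each pool among the higher. Among the lower, the glucocorticoid response element had 1 and 0 members and NR4A 17 in each pool. The window has the same length for both sets, so the width of the footprint does not change the chance of a match. It reaches past the footprint, by more for a narrow one, so a match need not lie inside the footprint. CTCF, with the letters CCNNNAGNNGGC, was the most frequent. It matched 838 members of replicate 1 and 835 of replicate 2, which is 18.1% in both, against 4.32% and 4.31% of narrow footprints. In flanking windows 200 bp away members matched in 1.46% and 1.5%.

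NRF1 drives nuclear genes for mitochondria and growth and has the letters GCGCNTGCG. It matched 7.12% and 7.1% of members and 1.14% and 1.13% of narrow footprints. The CRE, TGACGTCA, is the site of the CREB and ATF factors that answer cyclic AMP. It matched 2.64% of members in both pools and 0.308% and 0.312% of narrow footprints, a ratio of 8.56 and 8.45 and the highest of the motifs with at least 20 members. BANP, TCTCGCGA, is bound by a factor of CpG-island promoters. It matched 0.822% and 0.801% of members and 0.152% and 0.156% of narrow footprints. The ETS letters CCGGAAGT matched 1.75% of members in both pools against 0.699% and 0.685%. Their ratio of 2.51 and 2.56 was 1.71 and 1.74 in promoters. Elsewhere it was 2.56 and 2.68, on 7 members in each pool. In the strongest quartile of host signal it was 1.43 and 1.37.

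The SP and KLF letters GGGGCGGG matched 13.0% and 12.9% of members and 3.2% and 3.23% of narrow footprints. Read backwards without complementing, the same letters matched members at 15.3% in replicate 1 and narrow footprints at 3.32%. The reversed letters also hold the GGGCGG core of a GC box, so for these letters they are no control. For CTCF the reversed letters matched 0.736% of members and 0.617% of narrow footprints in replicate 1, and for NRF1 1.32% and 0.334%. The NFY box CCAAT, bound by the trimeric NF-Y, was at 12.5% and 12.6% in members against 8.81% and 8.85%. The ratio was 1.42 in both pools. Away from promoters NFY was at 7.53% and 7.69% against 7.55% and 7.6%, and in promoters at 15.9% against 10.8% in both pools. In the strongest quartile of host signal its ratio was 1.09 in both pools.

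The motifs of AP-1, NR5A1, GATA factors and the glucocorticoid receptor were at a lower share in wide footprints. AP-1, with the letters TGANTCA, is bound by Jun and Fos. It matched 3.96% and 3.92% of members and 8.72% of narrow footprints in both pools. NR5A1, also called SF-1, the nuclear receptor that defines steroidogenic cells, has the letters CAAGGTCA. It matched 1.1% of members and 2.32% of narrow footprints in both pools. The ratio of members to narrow footprints was 0.454 and 0.449 for AP-1 and 0.475 and 0.477 for NR5A1. Away from promoters it was 0.649 and 0.645 for AP-1 and 0.74 and 0.738 for NR5A1. In promoters it was 0.477 and 0.453 for AP-1 and 0.24 and 0.251 for NR5A1. In the strongest quartile of host signal, which holds most members, the NR5A1 share was 0.762% and 0.67% of members against 0.739% and 0.541% of narrow footprints, so the direction turned there. The site of GATA factors, with the letters AGATAA, matched 0.498% and 0.476% against 2.44% and 2.41%. The glucocorticoid response element was found in 1 member of replicate 1 and none of replicate 2, against 0.287% and 0.271% of narrow footprints. Of the members, 37.5% and 37.6% held none of the 28 motifs, against 56.2% and 56.3% of narrow footprints.

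**Figure D3:**
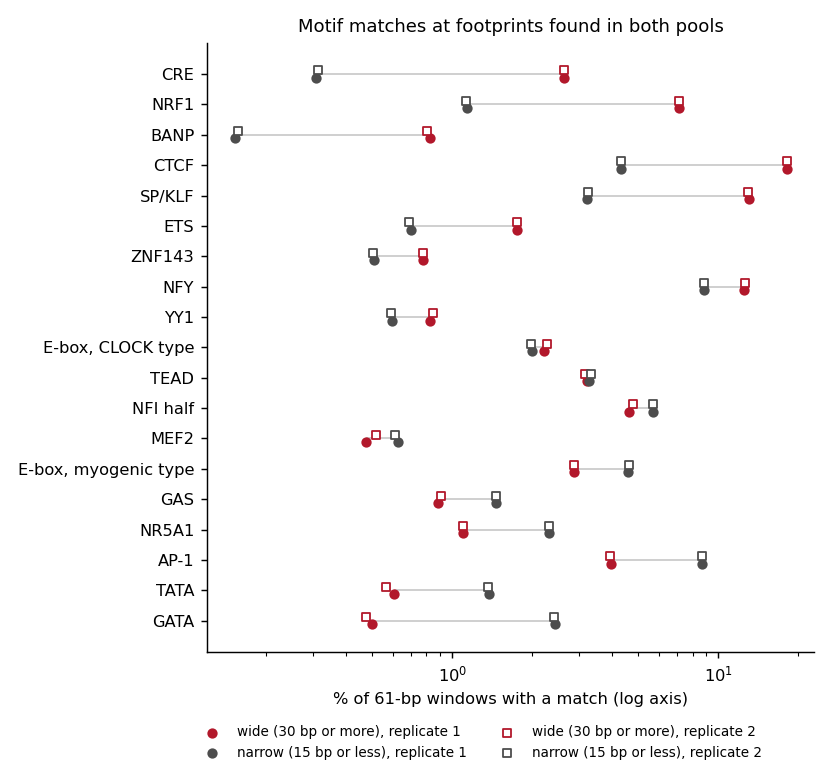
Percentage of 61-bp windows with a match, on a log axis, for the 19 motifs found in at least 20 members of replicate 1, ordered by the ratio of wide to narrow. Circles are replicate 1 and squares replicate 2, red for wide and grey for narrow footprints. CTCF, at 18.1% of wide and 4.32% of narrow windows in replicate 1, and CRE, at 2.64% and 0.308%, are higher in wide footprints, and AP-1 and GATA are lower. The CLOCK-type and myogenic-type E-boxes are the letters CACGTG and CAGCTG.

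The motifs of members divided by location. Away from promoters CTCF letters were found in 32.7% of the 1860 members in both pools, against 5.06% and 5.07% of narrow footprints. In promoters they were found in 8.29% and 8.22% against 3.16% and 3.12%. The NRF1 letters had the opposite distribution, with 11.2% and 11.1% of members in promoters and 1.13% elsewhere. Narrow footprints shared it, with 2.54% and 2.53% in promoters and 0.246% elsewhere. The ratio of members to narrow footprints was 4.39 in promoters and 4.59 elsewhere in both pools. All 38 and 37 members with a BANP match lay in promoters, at a median of -32 bp from the TSS in both pools. Among narrow footprints BANP was likewise at 0.371% and 0.382% in promoters and 0.0128% elsewhere. CRE members were in promoters in 83.6% of cases, with a median at -22 and -19 bp. The CTCF members had the lower host signal, with a median of 1.83 and 2.57, against 6.17 and 7.88 for NRF1 members and 7.53 and 9.31 for BANP members.

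The CTCF share was higher in members in every quartile of host signal. In the weakest quartile 49 of 79 members of replicate 1 (62%) and 20 of 43 of replicate 2 (46.5%) held the letters, against 7.48% and 6.98% of narrow footprints. In the strongest quartile the shares were 7.18% and 7.83% against 2.62% and 2.76%. The same held in each quartile of window GC, from 18.4% against 2.76% in the lowest to 12.4% against 4.57% in the highest in replicate 1. The CRE share of members was 3.27% and 3.28% in the strongest quartile of host signal, against 0.294% and 0.327%. AP-1 differed by quartile. It was lower in members in the third quartile, at 5.43% and 4.8% against 9.27% and 9.82%, but not in the strongest, at 3.52% and 3.88% against 3.21% and 2.98%.

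Read from the side of the motif, footprints with the centre of these letters inside them were wide more often than footprints at large. A longer footprint is more likely to hold the centre of any letters, so these shares are not free of its length. Of 6975 footprints of replicate 1 with the centre of CTCF letters inside them, 16.7% were wide, as were 23.8% of 9323 in replicate 2, against 2.63% and 3.35% of all footprints. Footprints over CTCF letters had a median width of 21 and 24 bp, against 9 bp for all footprints in both pools. For NRF1 the wide share was 18.5% and 19.5%, for BANP 20.3% and 21.5% and for CRE 19.3% and 19.4%. For AP-1 it was 3.89% and 5.56%, for NR5A1 3.25% and 4.38%, and for GATA 1.91% and 3.31%. AP-1 and NR5A1, at a lower share in members, were thus also above all footprints here, while GATA was below. The width set the members, so these values describe the call lists.

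Wide footprints were not centred alike on the CTCF letters. Among the 820 and 822 members with the letters inside the footprint, the edge on the right of the letters, read on their strand, lay at a median of 17.5 and 18.5 bp from their centre. Its interquartile range was 7 and 5 bp. The left edge had a median of -16.5 and -15.5 bp and an interquartile range of 16 and 15 bp, because it fell in separate clusters. In 468 and 462 members (57.1% and 56.2%) it was less than 20 bp from the centre, with a median of -11.5 bp in both pools. In the other 352 and 360 (42.9% and 43.8%) it had a median of -26.5 and -27.5 bp, and these footprints had a median width of 41 and 43 bp. The limit of 20 bp was chosen after the edges were seen. The printed Ptma and Gm22846 stretches show the forms: in the former the capitals begin soon after the left edge, and in the latter a long protected stretch precedes them.

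**Figure D4:**
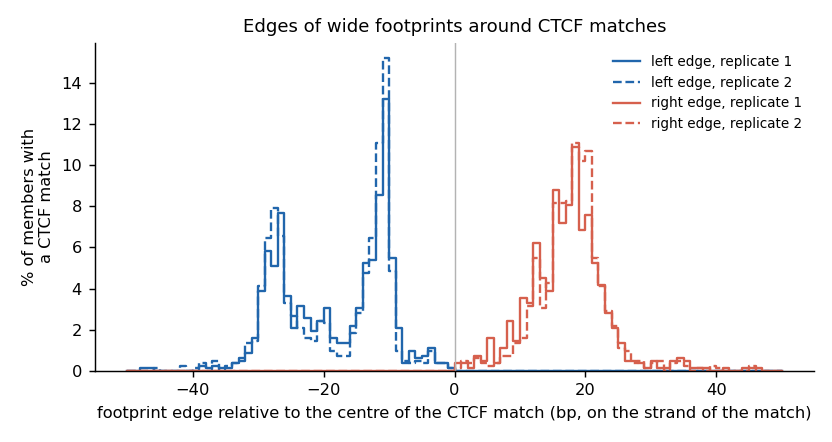
Percentage of members by the position of each footprint edge, among members with CTCF letters inside the footprint, in whole bp from the centre of the letters, on the strand of the letters. Blue lines are left and red lines right edges, solid for replicate 1 (820 members) and dashed for replicate 2 (822 members). The left edges form clusters on either side of -20 bp, and the right edges form a single group around a median of 17.5 and 18.5 bp.

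Wide footprints also lay on tRNA genes. The RefSeq annotation of the same assembly holds 403 tRNA genes on the chromosomes used, and this set was chosen after repeated sequence had been seen among the members. A tRNA gene was overlapped by 94 members in replicate 1 (2.03%) and 107 in replicate 2 (2.32%), against 40 narrow footprints in each pool (0.0781%). The members touched 90 and 93 genes, 22.3% and 23.1% of all. Of all footprints over tRNA genes 28.6% were wide in replicate 1 and 46.4% in replicate 2, against 2.63% and 3.35% of footprints anywhere. The sequence is repeated for many of them: 34 of the 94 and 45 of the 107 had central bases that occur once in the reference. Without the repeated footprints the share of members over tRNA genes, averaged over the pools, was 0.887%, against 0.0655% of narrow footprints.

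At the tRNA genes nearly all wide footprints were centred upstream of the start or past the middle of the gene. Within 200 bp of a gene there were 170 members in each pool, of which 84 had the midpoint upstream of the gene, 83 past its middle, 3 downstream and 0 between the start and the middle. The upstream members ran from a median of 50 bp before the start to 12 bp before it in replicate 1, and from 50 to 10 bp before it in replicate 2. The 94 and 107 members that overlapped a gene, 83 of them in each pool with the midpoint inside it, ran from base 40 to base 75.5 of the gene in replicate 1 and from base 38 to base 75 in replicate 2, as medians, on genes with a median length of 72 bp. Of 121 genes with a member in either place, 43 had both, in each pool. Of the 158 narrow footprints near tRNA genes, 83 had the midpoint upstream of the start in each pool, 21 and 20 between the start and the middle, 12 and 13 past the middle, and 42 downstream.

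The B box letters GTTCGANNC were in the window of 69 of the 94 members over tRNA genes in replicate 1 (73.4%) and 69 of the 107 in replicate 2 (64.5%). Of all members 1.6% and 1.62% held the letters, against 0.144% and 0.146% of narrow footprints. The printed n-TStga3 stretch belongs to a member of 32 and 40 bp with a host signal of 8.76 and 12.4. It covers bases 47 to 78 of an 82-bp serine tRNA gene in replicate 1. The n-TRccg1 member covers bases 38 to 69 of a 73-bp arginine tRNA gene and had a host signal of 8.59 and 11.3. By amino acid, a member in both pools was found on 9 of 20 genes for tRNA-Glu, 7 of 17 for tRNA-Thr and 6 of 10 for tRNA-Tyr. There were 4 of 57 for tRNA-Cys, 2 of 33 for tRNA-Ala and none of 7 for tRNA-Phe or of 8 for tRNA-Trp. On chromosome 11 a member was found on 24 of 47 tRNA genes and on chromosome 13 on 15 of 105. Of the 92 members over tRNA genes in both pools, 60 had central bases that occur more than once in the reference. Reads there cannot be placed with certainty, so the counts by amino acid and chromosome are no measure of occupancy. Other transcripts of RNA polymerase III had members too: the signal recognition particle RNA gene Rn7s2 had members at -110 and -35 bp, the former of 42 and 33 bp, and the vault RNA gene Vaultrc5 had a member at -25 bp of 38 bp in both pools. A member at the promoter of Gtf3c1, which codes for a subunit of TFIIIC, had a CRE match and host signals of 13.1 and 15.9.

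**Figure D5:**
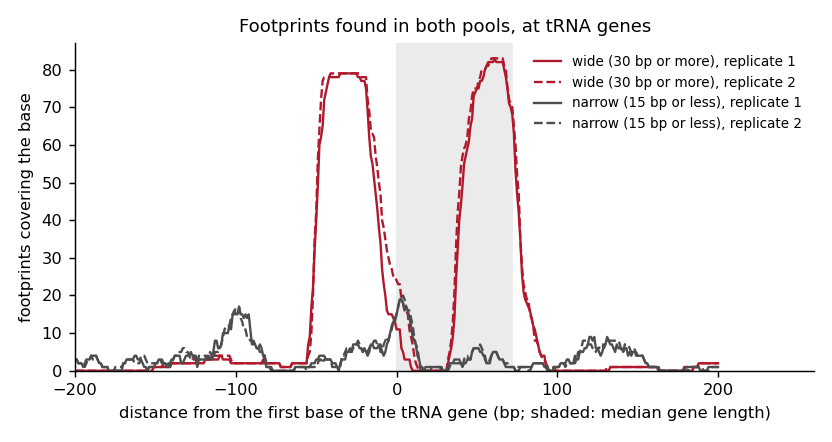
Number of footprints covering each base within 200 bp of the first base of a tRNA gene, on the strand of the gene, with the median gene length of 72 bp shaded. Red lines are wide and grey lines narrow footprints found in both pools, solid for replicate 1 and dashed for replicate 2. The wide footprints form a block upstream of the start and another past the middle of the gene, where 84 and 83 midpoints lie in each pool, and narrow footprints are fewer over both blocks.

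A wide footprint lay within 5 kb of a TSS of 2980 of 21911 protein-coding genes, the background of 13.6% against which the gene lists were read. Narrow footprints found in both pools lay near 51.0%. None of the 9 genes that define the cortex or the medulla had a member within 5 kb, although 8 had a promoter peak. Steroidogenesis genes had a member in 2 of 20 cases (10.0%), Soat1 and Scarb1. Soat1 esterifies cholesterol, and its member lay at -59 bp in peaks with a signal of 5.11 and 7.45. Scarb1, the receptor that takes up cholesterol from lipoproteins, had a member of 39 and 41 bp at -65 bp, with a host peak in replicate 2 alone, of signal 5.01. Narrow footprints lay near 14 of these 20 genes (70.0%). With all wide footprints of a single pool the steroidogenesis share was above the background, with 5 of 20 genes against 19.3% of all genes in replicate 1 and 6 of 20 against 23.7% in replicate 2. Genes of chromaffin cells, the catecholamine cells of the medulla, had a member in 2 of 22 cases (9.09%). These were Slc18a1, the vesicular monoamine transporter, at 555 bp with host signals of 5.61 and 8.59, and the granin gene Chgb at 524 bp with 2.46 and 3.33. The Chgb member matched the letters of both REST, a repressor of neuronal genes, and CTCF. The cholesterol synthesis list had a member at 1 of 20 genes (5.0%), Sc5d, and cortex zonation at 1 of 15 (6.67%), Axin2. In a single pool cholesterol synthesis had 5 and 4 of 20, above the background in replicate 1 and below it in replicate 2, and cortex zonation had 4 and 6 of 15, above it in both. Endothelium, macrophage, fibroblast and other-organ genes had none of 12, 12, 10 and 20.

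Among immediate early genes and clock genes, the shares with a wide footprint were above the background share. The shares with a narrow footprint were above theirs too, at 100% and 94.7% against 51.0% of all protein-coding genes. Of 16 immediate early genes 8 (50%) had at least 1 within 5 kb, 16 members in all. Jun, a subunit of AP-1, had 6, the most of any gene with no repeated sequence. They had midpoints at 37, -37, -95, -159, -217 and -1155 bp from its TSS. The first 4 lay in a peak of signal 15.4 and 16.9, the fifth in no peak, and the last in one of 8.37 and 9.58. Their widths were 30 to 41 bp in replicate 1 and 34 to 43 bp in replicate 2. Ier2 had a member at -34 bp of 36 and 32 bp with a CRE match and host signals of 6.11 and 7.85, and a further one at -1222 bp. Atf3 and Jund had 2 each, and Egr1, Junb, Nr4a1 and Nr4a2 had 1 each.

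Of 19 clock genes 6 (31.6%) had a member. Nr1d1, which codes for the heme-binding repressor REV-ERB alpha, had 4. At -95 bp it had a member of 35 and 33 bp with NRF1 and ZNF143 letters in a peak of signal 14.7 and 18.1. The other 3, at 1165 to 1461 bp inside the gene, shared a peak of 17.2 and 19.0, and 2 of them matched CACGTG, the E-box bound by CLOCK and BMAL1. Per1, a repressor of the clock that also answers cyclic AMP and glucocorticoids, had 3. The member at -1753 bp, counted from the nearest annotated Per1 TSS, lay in an intron. It was 40 bp wide in both pools, held a CRE and lay in a peak of 12.5 and 14.3. Tef had 2, and Nr1d2, Dbp and Bhlhe40 had 1. The Nr1d2 member was 48 bp wide in both pools and lay at -22 bp, in peaks of signal 16.6 and 17.7.

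The glucocorticoid response list had a member at 4 of 12 genes (33.3%): Per1, Dusp1, Sgk1 and Fkbp5. Sgk1, a kinase that raises sodium transport, had one of 31 and 40 bp at -96 bp with host signals of 5.82 and 7.67. None of these 4 genes' members held the glucocorticoid response element letters. Among all members these were in 1 of replicate 1 and 0 of replicate 2, so their absence here is not particular to these genes. Of 24 cytosolic ribosomal protein genes 10 (41.7%) had a member, each with 1. The Rpl27 member at -155 bp, of 41 and 38 bp, had the highest host signals of these, 10.3 and 11.4. Rpl5 had one of 46 bp in both pools at -35 bp with CTCF letters. The respiratory chain list had 6 of 24 (25%), with Atp5b, a subunit of ATP synthase, highest at 10.3 and 13.2. Cohesin and CTCF genes had 3 of 10 (30%), Stag1, Smc3 and Nipbl. Narrow footprints lay near 23 of the 24 genes of each of the ribosomal and respiratory lists and near all 16 immediate early genes. They also lay near 18 of 19 clock genes, all 12 glucocorticoid response genes and all 10 cohesin and CTCF genes. These lists were thus above the background for narrow footprints as well, which was 51.0%. The lists are short, and no list was tested against the background.

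The 10 protein-coding genes with the most members were mostly in repeated sequence or beside tRNA genes. Gm10717 and Gm10718 on chromosome 9 had 8 each, Gm10719 and Gm11168 had 7 each and Gm10722 had 5, and of these members 8, 8, 7, 6 and 4 were in sequence that occurs more than once. These predicted genes share their neighbourhood and members. Trim41, Aurkb, 9130213A22Rik and Hes7 on chromosome 11 had 5 members each, of which 2, 4, 5 and 5 lay within 200 bp of a tRNA gene. Jun was the other one of the 10, with 6 members of unique sequence, none near a tRNA gene.

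The widest members were of the same mixed kind. The widest, near Gm10718 at chr9:3024091-3024188, was 98 bp in replicate 1 but 53 bp in replicate 2, and its central bases occur 76 times in the reference. The next, near Gm27236, was 76 and 73 bp and occurs 1875 times. The widest with a unique centre was at the Leprot promoter, 66 and 69 bp, with host signals of 15.4 and 17.7. Epb41, a membrane skeleton protein gene, had one of 64 and 62 bp at -68 bp with CCAAT, and Erlin2 one of 65 and 61 bp at -120 bp. Those near Agbl5 and Gm24505, of 60 and 62 bp and of 59 and 60 bp, lay at tRNA genes for tyrosine and threonine, n-TYgta9 and n-TTagt9. Foxn3 had one of 60 and 59 bp.

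The members with the strongest host peaks were mostly at promoters. The highest host signal, 27.6 and 35.9, was at Dynlt1b, a dynein light chain gene, where a member at -31 bp was 47 and 42 bp wide and its central bases occur 2 times. Gatad2a, a subunit gene of the NuRD remodelling complex, had one of 43 and 45 bp at -185 bp with 18.6 and 20.2. Rab11b had one at -99 bp with 18.2 and 19.9, and Dnpep one at -167 bp with 18.8 and 22.8. A member at -35609 bp from Pak3 on chromosome X was the single one of the 10 with less signal in replicate 2, 21.8 and 16.3. Its window had a GC content of 31.1%.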

How the data were processed

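DNase-seq libraries of 2 pools were analysed from the files the authors deposited. Per the deposited readme texts, each library's own filtered mm10 alignments gave its peaks, its table of false discovery rates (FDR) and its footprints, so the pools were called separately. For aligner, callers and settings the sources used here give no name or version. The deposited peak lists hold the authors' signal per peak, on a scale not stated, and depth is unknown. The deposited FDR table holds p-values adjusted by the authors, with values under 0.05 listed. The deposited footprint value is 0.01 throughout, so footprints could not be ranked.

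Members and lists were chosen with earlier results of these data known. Footprints were matched 1 to 1 by best overlap. TSSs came from the GENCODE vM21 basic set, tRNA genes from RefSeq of GRCm38.p6. In that reference 99.927% of 44973 annotated start codons read ATG, so it was used as mm10. The longer peak list gave host peaks. The 15 gene lists and 28 motifs had no enrichment test. Named members are the 10 widest, the 10 with the highest mean host signal (1 per peak), those of list genes, the 10 genes with the most members, and for the leading motifs the highest host signals. tRNA genes and the printed selection were added after values were seen. Steps were tested on simulated data, with 32 of 32 answers recovered. Of these, 28 were searches for a motif's own letters written into random sequence. Python 3.11.15, pandas 2.3.3, numba 0.67.0 and bedtools 2.31.1 were used. Other widths, overlaps, windows, distances, peak lists, masks and single pools were tried as alternatives. One named member is not reported here.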

Additional observations from a re-analysis of the deposited data

How the results depend on the processing

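The number of wide footprints was 11113 with a limit of 25 bp and 2162 with 35 bp, and 7179 to 10706 for either pool alone. The difference in promoter share, wide minus narrow, of 20.9 percentage points became -2.41, -11.6, -9.62 and 1.77 from the weakest to the strongest quartile of host signal; the cause was not tested. It was 21.7 and 22.5 with overlaps of 1 bp and 0.8, 12.1 and 25 with limits of 25 and 35 bp, 22.8 with narrow at 12 bp, 26.9 against all narrow footprints of replicate 1, 21.7 and 20.2 within 500 bp and 2 kb, 20.8 with protein-coding TSSs, 21.8 with 1 member per peak, 20.7 without soft-masked and 21.7 without repeated footprints, and 17.1 to 25.8 for either pool alone. The ratio of median host signals, 2.98, was 3.08 and 3.1 with those overlaps, 2.33 and 3.46 with those limits, 3.2 with narrow at 12 bp, 4.04 against all narrow footprints, 2.6 with the shorter peak list, 3.15 with 1 member per peak, 2.02 within and 2.05 beyond 1 kb of a TSS, 2.52 without the top 1% of peaks, and 3.1 to 3.67 for either pool alone. The median number of footprints per host exceeded that of all narrow footprints by 1. The GC difference of 8.2 points was 3.28 in promoters, 4.92 elsewhere, and 7.32 and 5.94 with a shorter and a longer window. Of 28 motifs 3 and 6 were higher in members in the weakest and second quartile of host signal, where members were few, against 14 overall. Gene lists above the background numbered 6, and 9 to 10 for either pool alone.

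The motif ratios that crossed 1 did so mainly by host signal. In the weakest quartile, with 79 and 43 members, NRF1, CRE, BANP and SP/KLF were at 0 in members. Narrow footprints there held each of these at 0.854% or less, so with so few members the zeros give no direction. BANP was also at 0 in the second quartile and away from promoters. In the second quartile the ratios were 0.941 for NRF1, 0.59 for SP/KLF and 0.89 for NFY, and in the third 0.987 for NFY. In the strongest they were 1.2 for AP-1 and 1.13 for NR5A1, which was 1.07 in the lowest quartile of window GC, and GATA was 1.04 in the highest. CTCF ranged from 2.63 to 10.9 over 23 alternatives. The quartiles of GC and the exclusion of repeated sequence were added after seeing the data. No paired analysis was possible because there is 1 group. Depth is unknown, the pools share a donor label, and 2 pools allow no test.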

Other observations

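Some letters outside the 28 motifs recurred among the members that held none of them, and were chosen after their values were seen. In promoters CCACGCCC, a form of the KLF site, was in the window of 121 of 1037 such members in replicate 1 (11.7%) and 122 of 1044 in replicate 2 (11.7%), against 1.84% and 1.87% of narrow footprints without a listed motif. GTGACGTA, which differs from the CRE, was in 16 of these members in each pool, or 1.54% and 1.53%, against 0.106%. Away from promoters CAGGGGGC, part of many CTCF sites, was in 24 of 698 and 23 of 693 such members (3.44% and 3.32%), against 0.597% and 0.609%.

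The TSS nearest to a member within 1 kb belonged to a protein-coding gene in 89.6% and 89.7% of cases and to a long non-coding RNA gene in 7.17% and 7.06%. For narrow footprints these shares were 85.9% and 9.28% in both pools. Chromosome X held 58 members (1.25%), against 2.2% of narrow footprints.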
